A study of Mus musculus with 2 samples.

Results

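The bone morphogenetic protein (BMP) and transforming growth factor beta (TGF-beta) families were followed in right atrial nuclei from adult mice, control or Tbx5 G125R/+. Members were taken by gene symbol: every gene whose symbol starts with BMP (except BMP2K), TGFB, SMAD, ACVR, LTBP, INHB or GDF and a digit, and ID1 to ID4. This gave 47 of the 9330 genes in the count tables, 29 of them with at least 20 counts over all nuclei. The adult Tbx5 G125R/+ mice carry the patient-derived p.G125R substitution in the cardiac transcription factor Tbx5 on 1 allele, and the control mice do not. Single-nucleus RNA sequencing was done on 1 library per genotype, each from nuclei of 3 right atria pooled before sorting on DNA stain, so that variation between mice cannot be seen and genotype and library cannot be told apart. All differences between the genotypes below are therefore differences between 2 libraries, with intervals that cover counting error only and no test.

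In this pathway, dimeric ligands bring together type I and type II receptor kinases. The type I receptor then phosphorylates SMAD proteins, SMAD1, SMAD5 and SMAD9 for BMP ligands and SMAD2 and SMAD3 for TGF-beta and activin, which enter the nucleus with SMAD4. ID1 to ID4, inhibitors of basic helix-loop-helix factors, are typical BMP target genes, and SMAD6 and SMAD7 are induced by the pathway and inhibit it. In the heart, BMP signals act in atrioventricular and valve development, BMP10 is a ligand of atrial cardiomyocytes, and TGF-beta drives matrix production by fibroblasts.

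Among the members, Id3 and Smad6 had the smallest adjusted p-values between groups of nuclei and Inhba, which encodes the activin A subunit, passed 2-fold between the libraries over all nuclei, so the start of each gene is shown. The letters searched are those of T-box proteins, the family of Tbx5, and of SMADs, the transcription factors of the pathway. The sequences are RefSeq windows of GRCm38.p6, from 250 bases before to 50 bases after a transcript start, read 5′ to 3′ on the gene's strand. Capitals mark matches, on either strand, to the T-box core AGGTGT, to the palindromic SMAD element GTCTAGAC or to the GC-rich SMAD element GGCGCC.
Id3 (chr4:136143572-136143871, plus strand): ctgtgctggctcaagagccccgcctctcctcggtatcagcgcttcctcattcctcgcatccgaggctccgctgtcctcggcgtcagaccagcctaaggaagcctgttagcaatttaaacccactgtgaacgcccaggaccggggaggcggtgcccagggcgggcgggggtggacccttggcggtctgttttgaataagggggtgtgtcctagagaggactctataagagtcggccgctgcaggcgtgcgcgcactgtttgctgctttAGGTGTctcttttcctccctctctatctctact
Smad6 (chr9:64022010-64022309, minus strand): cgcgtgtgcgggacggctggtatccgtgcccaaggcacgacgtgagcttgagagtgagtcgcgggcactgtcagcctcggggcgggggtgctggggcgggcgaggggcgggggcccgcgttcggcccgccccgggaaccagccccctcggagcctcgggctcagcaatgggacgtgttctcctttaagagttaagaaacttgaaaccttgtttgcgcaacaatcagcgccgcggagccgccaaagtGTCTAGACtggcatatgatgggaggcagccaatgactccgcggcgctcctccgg
Inhba (chr13:16011601-16011900, plus strand): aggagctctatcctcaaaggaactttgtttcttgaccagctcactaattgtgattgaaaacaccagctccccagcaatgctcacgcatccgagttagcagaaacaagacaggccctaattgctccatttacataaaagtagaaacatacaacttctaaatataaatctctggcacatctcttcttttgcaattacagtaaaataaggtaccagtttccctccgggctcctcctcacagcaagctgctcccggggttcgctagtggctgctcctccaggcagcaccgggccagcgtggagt
The window of Id3 (RefSeq gene from 136143822 to 136145392) holds 1 T-box core, 17 bases after the start. The window of Smad6 (gene from 63953076 to 64022085) holds GTCTAGAC from 4 bases before its start, and that of Inhba (gene from 16004256 to 16031609) none of the 3 motifs. The windows of Smad6 and Inhba lie at an annotated start within the gene, not at its outermost base. A window was found for 31 of the 47 members, with 39 windows in all. Among these 39, AGGTGT occurred in 6 (15.4%), against 13.7% of all 32851 windows of the table. GTCTAGAC occurred in 1 member window (2.56%, against 0.213% of all) and GGCGCC in 13 (33.3%, against 11.9%). A match is a string of letters and was not tested for binding.

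The control library held 3475 nuclei with 560272 counts and the Tbx5 G125R/+ library 2933 nuclei with 422811 counts. Nuclei were sorted by marker counts in a fixed order. Nuclei with at least 4 counts of TTN, the giant sarcomere protein titin, were called titin-rich (438 control and 438 Tbx5 G125R/+ nuclei), then those with at least 2 counts over the matrix genes COL1A1, COL3A1 and FBLN1 matrix-marked (486 and 285). Of the others, those with any count of FLT1, PTPRB, TEK or ERG were called TEK-marked (268 and 222), and the rest formed the remaining nuclei (2283 and 1988). Titin-rich nuclei were deeper, with medians of 259 and 238 counts, than matrix-marked (157.5 and 138), TEK-marked (149.5 and 136) and remaining nuclei (122 and 111). Taken as lists, check genes outside the rules followed the names of the titin-rich and matrix-marked groups. The 7 cardiomyocyte genes stood at 270 and 250 counts per 10000 counts in titin-rich nuclei and at 45.7 to 85.7 elsewhere. For the 6 fibroblast genes the levels were 24.2 and 29.8 in matrix-marked nuclei and 2.00 to 12.0 elsewhere. MYH6, the atrial myosin heavy chain, stood at 153 and 151 in titin-rich nuclei and at 10.2 to 26.1 elsewhere. The collagen gene COL1A2 stood at 11.0 and 14.9 in matrix-marked nuclei and at 1.20 to 5.18 elsewhere. Not every gene separated so far: MYL4 was at 16.2 and 9.70 in titin-rich nuclei and 6.14 to 12.8 elsewhere. LUM had 0 counts in matrix-marked nuclei and POSTN 1 in each library. The rule of the TEK-marked group was written for endothelial cells, yet the endothelial markers CDH5, EGFL7 and EMCN had 0 counts there, KDR had 3 and VWF 1 over both libraries, and TEK itself gave 237 of 318 and 171 of 263 of the counts that placed nuclei in the group. NPR3, a marker of the endocardium, had 23 and 9 counts there (5.25 and 2.78 per 10000). It was also found in the remaining nuclei, with 39 and 34 counts (1.29 and 1.44 per 10000). The group is therefore named by its gene and not as a cell type. In all, 160 nuclei met more than 1 rule. MYH6 was thus also counted outside the titin-rich group, and the part of RNA from other cells in the results below was not tested. No nucleus identifier was shared by the libraries, but the tables hold no barcodes.

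The members took 6190 counts, 0.630% of all counts. These are counts and not levels per length, so that genes are not compared with each other by level. The 4 ID genes held 35.4% of them, the inhibitory SMADs 22.1%, and the receptor-regulated SMADs 3.93%. The type I receptors had 805 counts and the type II receptors 703. ID3 alone gave 30.3%. Another 6 members had 10 to 19 counts: the common mediator SMAD4 (14), the latent TGF-beta binding protein LTBP3 (13), the TGF-beta-induced matrix protein TGFBI (13), the ligand TGFB2 (12), the BMP-responsive SMAD9 (12) and the adapter TGFB1I1 (10). The last 12 had fewer than 10, among them the ligands BMP2 (8), GDF11 (8), INHBB (4) and GDF3, GDF5 and GDF6 (1 each), the receptors ACVR1C (4) and ACVRL1 (2), the receptor-associated protein TGFBRAP1 (4) and 3 antisense transcripts with 1 to 3 counts. These 18 entered no test between groups. With a minimum of 10 counts, TGFB2 also passed 2-fold between the libraries over all nuclei, with 10 control and 2 Tbx5 G125R/+ counts (log2 ratio -1.66, -5.15 to 0.31), an interval that includes 0.

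**Figure D1:**
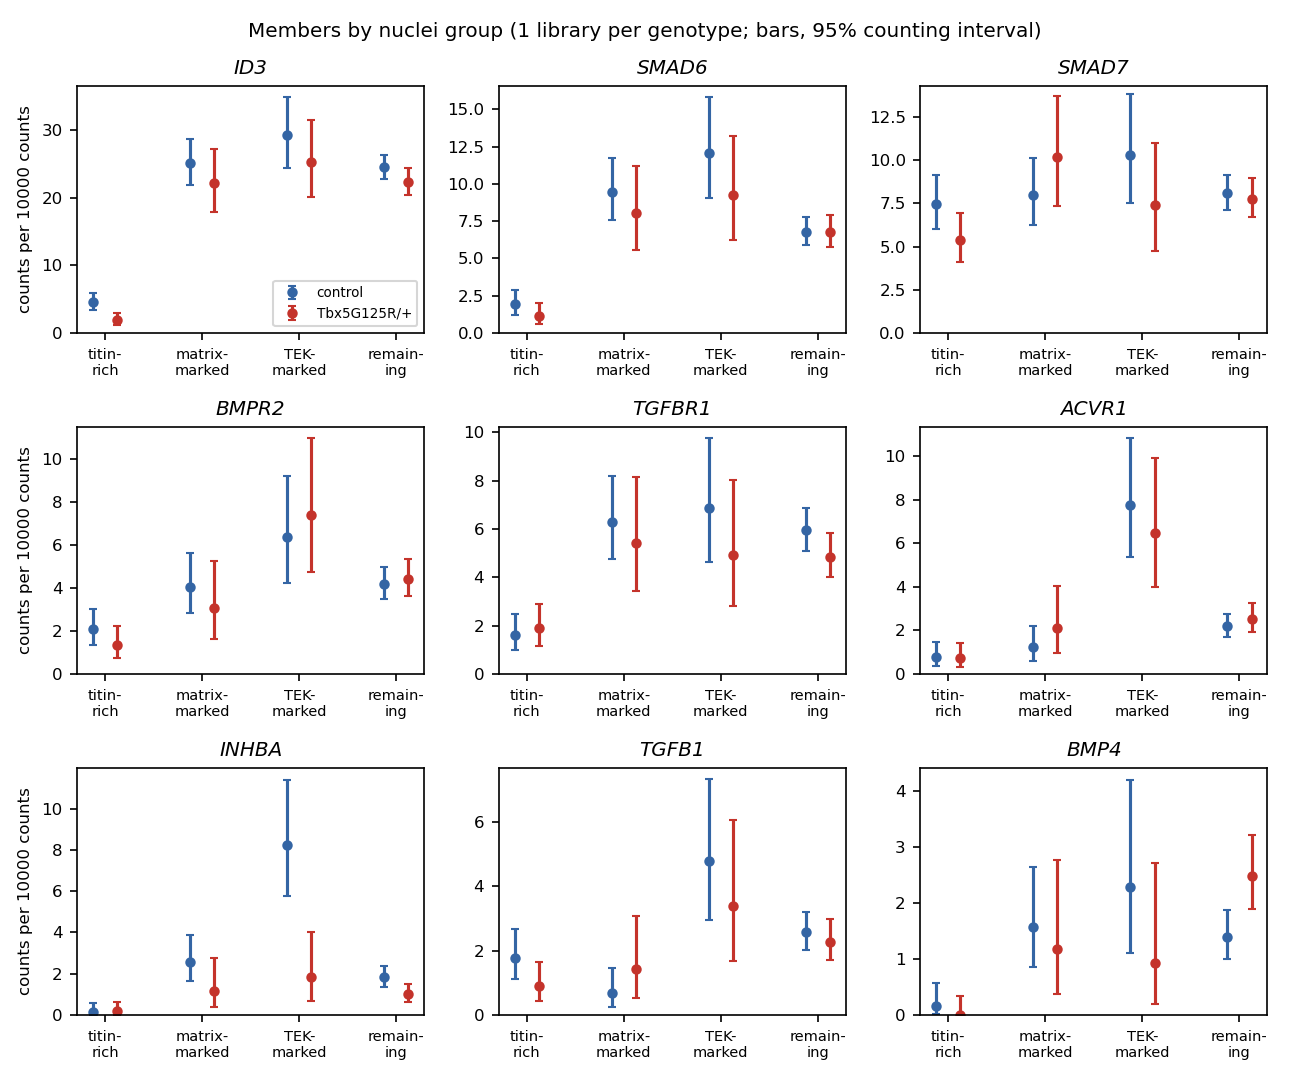
Levels of 9 members in the 4 groups of nuclei, in counts per 10000 counts of the group (y axis, from 0), for the control (blue) and the Tbx5 G125R/+ library (red). Points are 1 library each and bars are exact 95% Poisson intervals, which cover counting error only. ID3 and SMAD6 are lowest in titin-rich nuclei in both libraries, SMAD7 is at similar levels in all 4 groups, and INHBA is highest in TEK-marked nuclei of the control library. Without 1 nucleus that INHBA level is 2.76, against 2.59 in matrix-marked nuclei of the same library.

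Members of both branches differed between groups of nuclei. Titin-rich nuclei had low counts of ID3, SMAD6, INHBA, BMP4 and of several receptors. TEK-marked nuclei had high counts of ACVR1, TGFB1, ID1, BMP6, INHBA, ID3 and SMAD6, with limits. There, the calls of ACVR1, TGFB1, ID1, BMP6 and SMAD6 were lost under at least 1 change of settings given below. The call of ID3 there was lost without the titin-rich nuclei. Of the 36 control INHBA counts there, 24 came from 1 nucleus. Each group was tested against the mean of the other 3 with edgeR's quasi-likelihood test on 8 sums, 4 groups in 2 libraries, with the library as a block and Benjamini-Hochberg adjustment over the 4020 genes tested. The only repeats are the 2 libraries, of different genotype, and the fit gave all genes 1 shared spread, so that these p-values measure little beyond counting error and this one pair of libraries. Differences below are log2 differences of the group from the mean of the others. Those given for a library taken alone are scaled to total counts, so they are not on the scale of the fit. The value after ± is an approximate standard error, back-calculated from the difference and the F statistic of the test.

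Among ligands, BMP10 was called higher in titin-rich nuclei (adjusted p = 2.30e-04, edgeR). It had 9 control and 7 Tbx5 G125R/+ counts there, 5 and 2 in the remaining nuclei, 1 and 0 in TEK-marked and 0 in matrix-marked nuclei, where 0 counts allow up to 0.338 and 0.709 per 10000. So 16 of its 24 counts came from titin-rich nuclei, the group marked by cardiomyocyte genes. BMP4, a ligand made in many mesenchymal tissues, showed the opposite spread, with 2 and 0 counts in titin-rich, 14 and 5 in matrix-marked, 10 and 3 in TEK-marked and 42 and 59 in remaining nuclei. It was called lower in titin-rich nuclei (adjusted p = 1.53e-07, edgeR) and higher in the remaining nuclei (1.51 ± 0.36, adjusted p = 0.00148), the latter from differences of 0.60 in the control and 2.66 in the Tbx5 G125R/+ library. BMP6, known as an endothelial ligand in liver, had 6 and 2 counts in TEK-marked nuclei, 9 and 4 in the remaining nuclei, 1 and 0 in titin-rich and 0 in matrix-marked nuclei, and was called higher in TEK-marked nuclei on these few counts (adjusted p = 0.00542, edgeR; 0.00289 to 0.319 over the alternatives).

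TGFB1, the most studied TGF-beta ligand, was at 4.80 and 3.39 counts per 10000 in TEK-marked nuclei, 2.57 and 2.28 in the remaining, 1.76 and 0.898 in titin-rich and 0.676 and 1.42 in matrix-marked nuclei. It was higher in TEK-marked nuclei (1.36 ± 0.35, adjusted p = 0.00263, edgeR) and lower in matrix-marked nuclei (-1.50 ± 0.40, adjusted p = 0.00465). The second of these rests mainly on the control library, where the difference was -1.96, against -0.36 in the Tbx5 G125R/+ library. With nuclei required to hold 2 endothelial marker counts, neither call remained, at adjusted p-values of 0.738 and 0.555, the highest over the alternatives (lowest 4.46e-04 and 0.00143), nor with DESeq2 (0.103 and 0.234). That marker rule moves nuclei with 1 such count to the remaining group and leaves titin-rich and matrix-marked nuclei unchanged. TGFB3, with 19 control and 15 Tbx5 G125R/+ counts in all nuclei, was called in no group.

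INHBA stood at 8.22 and 1.85 counts per 10000 in TEK-marked nuclei, 2.59 and 1.18 in matrix-marked, 1.82 and 1.01 in the remaining and 0.160 and 0.180 in titin-rich nuclei. It was lower in titin-rich nuclei (-3.44 ± 0.52, adjusted p = 6.24e-10, edgeR) and higher in TEK-marked nuclei (2.57 ± 0.36, adjusted p = 2.54e-10). One control nucleus held 24 of the 36 control counts of the TEK-marked group. Without it and without the titin-rich nuclei, both left out after seeing the data, INHBA was no longer called in TEK-marked nuclei (adjusted p = 0.738, edgeR). Without the titin-rich nuclei alone the adjusted p was 0.00136 (edgeR). Over the alternatives that kept them, that nucleus alone left out among these, it was 6.01e-12 to 0.0486 (edgeR or DESeq2).

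Among the proteins that handle ligands outside the cell, LTBP4, which holds latent TGF-beta in the matrix, was lower in titin-rich nuclei (-2.44 ± 0.72, adjusted p = 0.00362, edgeR). It had 2 control and 1 Tbx5 G125R/+ counts there, 11 and 3 in matrix-marked, 4 and 3 in TEK-marked and 24 and 21 in remaining nuclei. LTBP1 (20 and 18 counts in all nuclei), the procollagen and chordin protease BMP1 (16 and 11) and the BMP-binding protein BMPER (16 and 8) had 0 or 1 count per library in titin-rich nuclei and were called in no group in the main fit. LTBP1 and BMP1 differed there by -2.83 and -2.78 (adjusted p = 0.0581 and 0.0572, edgeR). Their lowest adjusted p-values over the alternatives (edgeR or DESeq2) were 0.0143 and 0.0204, so that both were called under at least 1.

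Of the receptors, ACVR1, a type I receptor for BMP ligands also called ALK2, stood at 7.76 and 6.48 counts per 10000 in TEK-marked nuclei, 2.18 and 2.53 in the remaining, 1.24 and 2.13 in matrix-marked and 0.802 and 0.719 in titin-rich nuclei. The intervals of the TEK-marked nuclei, 5.38 to 10.8 and 4.01 to 9.91, lie above those of the titin-rich and the remaining nuclei in both libraries. ACVR1 was higher in TEK-marked (2.19 ± 0.29, adjusted p = 1.33e-11, edgeR) and lower in titin-rich nuclei (-1.60 ± 0.35, adjusted p = 3.12e-05). With 2 endothelial marker counts required, the adjusted p in TEK-marked nuclei was 0.0855 (2.42e-13 to 0.0855 over the alternatives).

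BMPR2, the type II receptor for BMP ligands, stood at 6.39 and 7.41 counts per 10000 in TEK-marked, 4.19 and 4.44 in remaining, 4.06 and 3.07 in matrix-marked and 2.08 and 1.35 in titin-rich nuclei. TGFBR2, the type II receptor for TGF-beta, had 12 control and 6 Tbx5 G125R/+ counts in TEK-marked, 37 and 21 in remaining, 12 and 1 in matrix-marked and 4 and 1 in titin-rich nuclei. Both were higher in TEK-marked nuclei (BMPR2 1.01 ± 0.26 and TGFBR2 1.78 ± 0.49, adjusted p = 0.00287 and 0.00649, edgeR) and lower in titin-rich nuclei (-1.10 ± 0.25 and -2.24 ± 0.57, adjusted p = 7.18e-05 and 6.06e-04). Over the alternatives the adjusted p reached 0.392 for BMPR2 and 0.819 for TGFBR2 in TEK-marked nuclei, and 0.0257 and 0.0724 in titin-rich nuclei. TGFBR1, the type I receptor for TGF-beta, was at 1.60 and 1.89 counts per 10000 in titin-rich nuclei and at 4.86 to 6.85 in the other groups, and was lower in titin-rich nuclei (-1.37 ± 0.24, adjusted p = 1.43e-07).

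ACVR2A, a type II receptor for activins and BMP ligands, went the other way. It was at 2.00 and 1.89 counts per 10000 in titin-rich nuclei and at 0.709 to 1.85 elsewhere, and was called higher in titin-rich nuclei (0.94 ± 0.32, adjusted p = 0.0159, edgeR), a call lost with scaling to total counts alone (adjusted p = 0.159), with DESeq2 (0.173) or with at least 8 TTN counts (0.214, the highest over the alternatives, with 0.00797 the lowest). No group was called for the related type II receptor ACVR2B (55 and 43 counts in all nuclei), the type I receptors ACVR1B (37 and 33) and BMPR1A (26 and 23) or the co-receptor TGFBR3, betaglycan (32 and 20).

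The SMADs that carry the signal were called in no group of nuclei. SMAD2 had 80 and 39 counts over all nuclei, SMAD1 23 and 21, SMAD5 22 and 16 and SMAD3 20 and 10. Of the inhibitory SMADs, SMAD6, which acts mainly on BMP signals, was at 1.92 and 1.17 counts per 10000 in titin-rich nuclei, 6.80 and 6.80 in the remaining, 9.46 and 8.03 in matrix-marked and 12.1 and 9.26 in TEK-marked nuclei. It was lower in titin-rich (-2.11 ± 0.23, adjusted p = 9.49e-19, edgeR) and higher in TEK-marked (1.08 ± 0.21, adjusted p = 1.96e-05) and matrix-marked nuclei (0.76 ± 0.19, adjusted p = 0.00203). The adjusted p reached 0.574 in TEK-marked and 0.155 in matrix-marked nuclei over the alternatives, so that both higher calls were lost under some of them, and 1.33e-08 in titin-rich nuclei. SMAD7, which acts on both branches, ranged only from 5.39 to 10.3 counts per 10000 over the 4 groups and 2 libraries. In the main fit it was called in none of the groups. Its difference in titin-rich nuclei was -0.05 in the fit. Scaled to total counts, it was -0.23 in the control and -0.64 in the Tbx5 G125R/+ library taken alone, so these values are not on the scale of the fit. The lowest adjusted p there over the alternatives (edgeR or DESeq2) was 0.0405, so that a call was gained under at least 1 of them.

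Of the target genes, ID3 stood at 4.57 and 1.98 counts per 10000 in titin-rich nuclei, 24.5 and 22.3 in the remaining, 25.1 and 22.2 in matrix-marked and 29.2 and 25.3 in TEK-marked nuclei. The titin-rich level lies below every other group in both libraries, with no overlap of intervals, while the other 3 groups overlap within each library. ID3 was 5.84-fold lower in titin-rich nuclei (-2.55 ± 0.17 on the log2 scale, adjusted p = 8.27e-50, edgeR; 9.05e-66 to 2.19e-23 over the alternatives). ID2 was lower in titin-rich (-0.96 ± 0.28, adjusted p = 0.00394) and higher in TEK-marked nuclei (0.90 ± 0.30, adjusted p = 0.0427), at 1.36 and 1.35 against 4.57 and 4.94 counts per 10000. Both calls of ID2 were lost with 2 endothelial marker counts required (adjusted p = 0.561 and 0.704, edgeR, the highest over the alternatives), where its difference in TEK-marked nuclei was -0.72. The titin-rich nuclei were the same under that rule, and only the groups they were set against changed. ID1 had 5 and 4 counts in TEK-marked, 9 and 3 in remaining, 1 and 1 in matrix-marked and 1 and 0 in titin-rich nuclei, and was called higher in TEK-marked nuclei (3.11 ± 0.89, adjusted p = 0.0103, edgeR; 0.00530 to 0.0968 over the alternatives). ID4, with 21 and 15 counts in all nuclei, was called in no group.

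**Figure D2:**
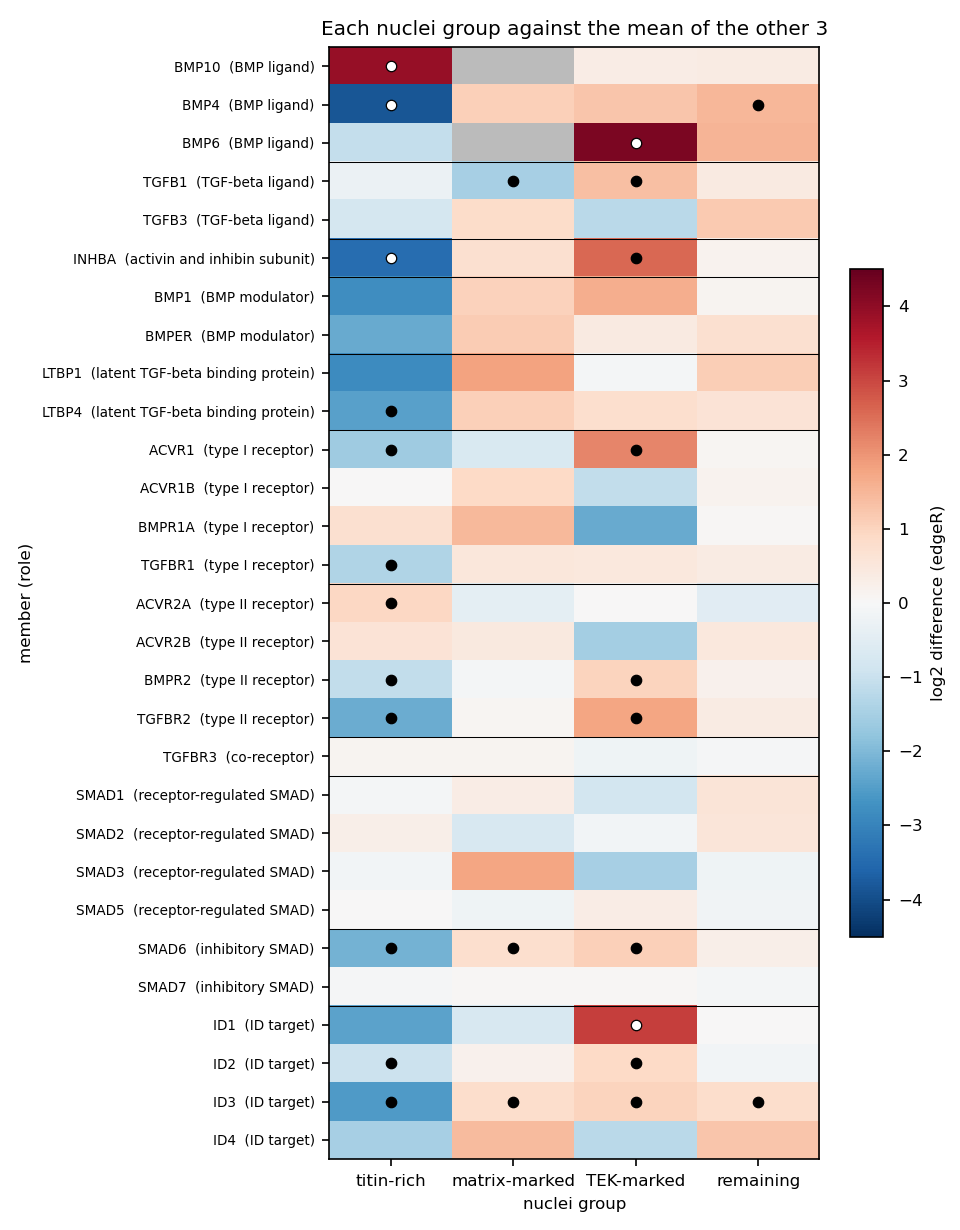
Log2 difference of each nuclei group (columns) from the mean of the other 3 for the 29 members with at least 20 counts (rows, by role), from edgeR on 8 sums. Red is higher and blue lower, dots mark an adjusted p under 0.05 over 4020 genes, and grey marks no count in either library. The titin-rich column holds 10 lower and 2 higher calls, and the TEK-marked column 10 higher calls.

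In titin-rich nuclei, 10 of the 29 members tested (34.5%) were lower, against 11.6% of all 4020 genes, and 2 (6.90%) were higher, against 16.7%. In TEK-marked nuclei 10 (34.5%) were higher, against 3.91% of all genes. None was lower there, against 3.41%, with 1 member at an unadjusted p under 0.05 in edgeR and 0 called by DESeq2. In matrix-marked nuclei 2 members (6.90%), ID3 and SMAD6, were higher, against 4.70%, and 1 (3.45%), TGFB1, was lower, against 2.76%. In the remaining nuclei 2 (6.90%), ID3 and BMP4, were higher, against 3.66%. None was lower, against 0.796%, with 0 members at an unadjusted p under 0.05 in edgeR and 0 by DESeq2. Of the 10 lower calls in titin-rich nuclei, DESeq2 gave 7, without ID2, LTBP4 and TGFBR2, and with 2 endothelial marker counts required TGFBR1 was lost as well (adjusted p = 0.114, edgeR). That marker rule leaves the titin-rich nuclei themselves unchanged. Every called member had the sign of its call in each library taken alone. The calls were made from these same 2 libraries, so this is no separate support. The median of the 29 members was -1.07 on the log2 scale in titin-rich nuclei, against 0.01 for all genes, and 0.42 against -0.08 in TEK-marked, 0.44 against 0.03 in matrix-marked and 0.36 against 0.15 in remaining nuclei. Members with at least 20 counts had a median of 70.0 counts, and all genes with that minimum 78.0.

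Because the low titin-rich nuclei are part of the mean against which each other group was set, the 3 other groups were also compared among themselves, an alternative added after seeing the data, with 28 members among 3557 genes. In TEK-marked nuclei ACVR1 (1.89, adjusted p = 3.21e-05, edgeR), TGFB1 (1.45, 0.0148), BMP6 (adjusted p = 0.0396) and INHBA (1.63, 0.00136) were still higher, 4 of 28 (14.3%) against 2.50% of all genes. No member was lower, against 1.77%, and 0 had an unadjusted p under 0.05. BMPR2, TGFBR2, ID1, ID2, ID3 and SMAD6 were no longer called, with adjusted p-values from 0.0754 to 0.568. Their differences were 2.60 for ID1, 1.18 for TGFBR2, 0.73 for BMPR2 and 0.68 for ID2, and 0.44 for SMAD6 and 0.18 for ID3, against 1.08 and 0.99 with the titin-rich nuclei. In matrix-marked nuclei ACVR1 (-1.37, adjusted p = 0.00596) and TGFB1 (-1.77, 0.00395) were lower, 2 of 28 against 1.91%, and no member was higher, against 2.45%, with 2 at an unadjusted p under 0.05. ID3 and SMAD6 differed there by -0.06 and 0.08 only. In the remaining nuclei no member was higher, against 1.15%, with 0 at an unadjusted p under 0.05, and INHBA alone was lower, against 0.422%, at an adjusted p of 0.0251, which was 0.517 without the single INHBA-rich nucleus. BMP4 and ID3 were no longer called there (0.910 and 0.786). DESeq2 was not run on these 3 groups.

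Between the libraries, INHBA was the one member past 2-fold over all nuclei, and ID3 the one in titin-rich nuclei. Over all nuclei, 21 of the 29 members had a log2 ratio of Tbx5 G125R/+ over control below 0, against 53.5% of all 4028 genes with at least 20 counts, and their median was -0.14, against -0.03. INHBA is 1 of 29, against 4.25% of all genes past 2-fold. The summed counts of all 47 members stood at 67.1 per 10000 in the control and 57.5 in the Tbx5 G125R/+ library, a log2 ratio of -0.22 (-0.29 to -0.15). The target genes, the IDs with SMAD6 and SMAD7, stood at 38.6 and 33.0 (-0.23, -0.33 to -0.13), and the ligands at 6.89 and 5.32 (-0.37, -0.62 to -0.13), or 4.82 and 4.45 (-0.11, -0.39 to 0.16) without INHBA. The receptors stood at 16.5 and 15.0 (-0.14, -0.28 to 0.01) and the SMADs that carry the signal at 2.89 and 2.25 (-0.36, -0.74 to 0.01). Fewer nuclei of a kind and less RNA per nucleus cannot be told apart in sums over all nuclei, so the groups were compared one by one.

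**Figure D3:**
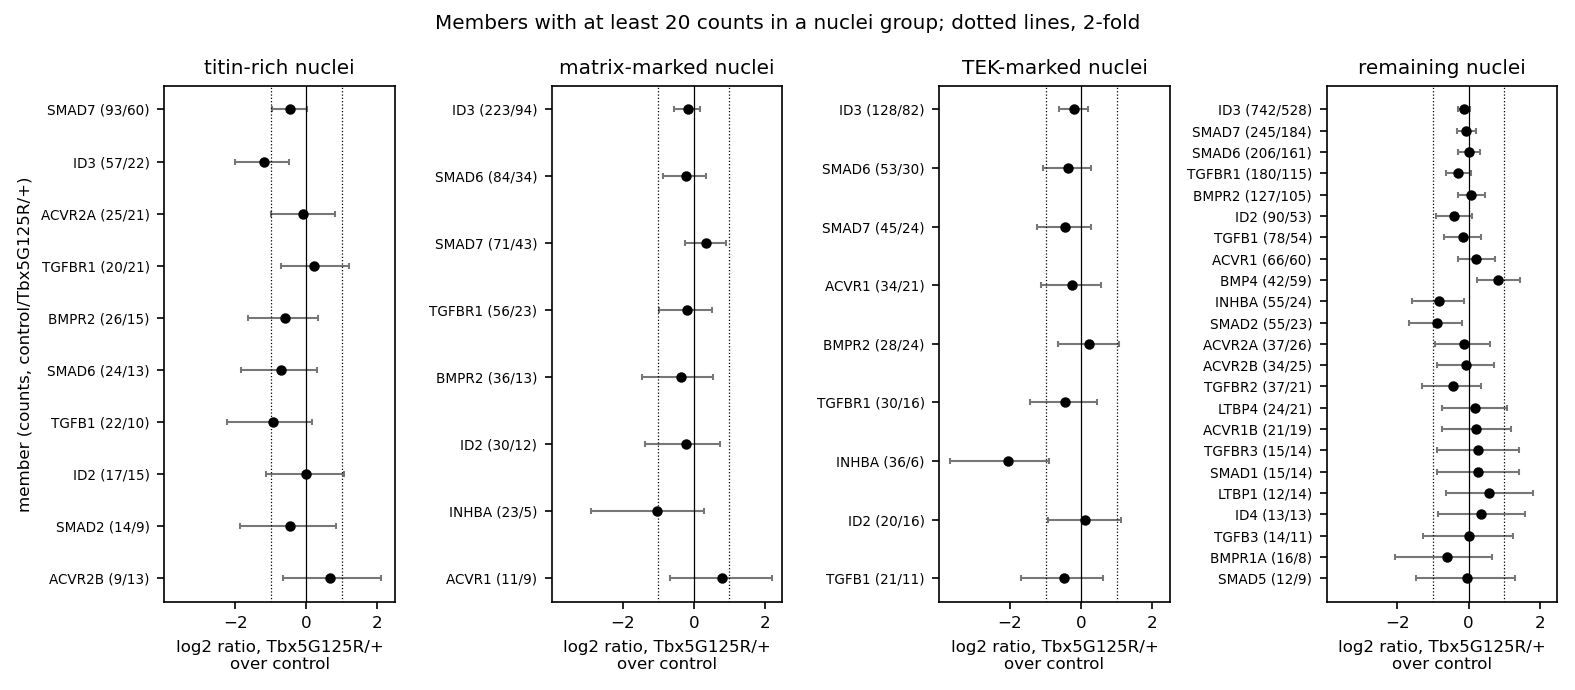
Log2 ratio of the Tbx5 G125R/+ over the control library (x axis) for the members with at least 20 counts in each group of nuclei, in order of counts, with the counts of both libraries after each name. Bars are exact 95% conditional intervals (counting error only), the solid line is no difference and dotted lines are 2-fold. ID3 in titin-rich and INHBA in matrix-marked and TEK-marked nuclei lie past 2-fold.

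In titin-rich nuclei 10 members could be compared, and 1, ID3, passed 2-fold (against 6.98% of 1748 genes). ID3 had 57 control and 22 Tbx5 G125R/+ counts, 4.57 (3.46 to 5.92) and 1.98 (1.24 to 2.99) per 10000, a log2 ratio of -1.19 (-1.99 to -0.48). The counts came from 45 and 20 of the 438 nuclei of each library, and no nucleus held more than 3. The ratio ranged from -1.19 to -1.04 over the 11 alternatives, and was -1.14 without the nuclei that met more than 1 rule. In the other groups ID3 differed by -0.20 to -0.13, with intervals that include 0. In the same titin-rich nuclei, the 3 matrix genes COL1A1, COL3A1 and FBLN1 had 211 and 145 counts (-0.38, -0.69 to -0.07), all 3 above 0, and FLT1, PTPRB, TEK and ERG 14 and 9. The part of RNA from other cells in the ID3 counts was not tested. The other 9 members of titin-rich nuclei ranged from -0.94 (TGFB1, 22 and 10 counts) to 0.67 (ACVR2B, 9 and 13), with SMAD7 at 93 and 60 counts (-0.46, -0.96 to 0.02), SMAD6 at 24 and 13 (-0.70), BMPR2 at 26 and 15 (-0.61), SMAD2 at 14 and 9 (-0.45), TGFBR1 at 20 and 21 (0.23), ACVR2A at 25 and 21 (-0.08) and ID2 at 17 and 15 (-0.01), and each interval includes 0.

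The log2 ratio of INHBA was below 0 in 3 of the 4 groups. Over all nuclei it had 116 control and 37 Tbx5 G125R/+ counts, a log2 ratio of -1.23 (-1.82 to -0.70). In TEK-marked nuclei it had 36 and 6 counts (-2.05, -3.69 to -0.89), the only one of 9 members past 2-fold, against 5.80% of 811 genes. In matrix-marked nuclei it had 23 and 5 (-1.03, -2.89 to 0.29), the only one of 8, against 6.71% of 1282 genes, and the remaining nuclei had 55 and 24 (-0.82, -1.60 to -0.12). The titin-rich nuclei had 2 and 2. These counts were spread unevenly over nuclei. The fullest control nucleus of the remaining group held 9 of its 55 INHBA counts, and its part in the ratio there was not tested. One control nucleus of the TEK-marked group, with 307 counts in all and 1 of TEK, held 24 INHBA counts. Without it the TEK-marked nuclei had 12 and 6 counts (-0.52, -2.28 to 0.95), so that the difference there was not detectable, and all nuclei had 92 and 37 (-0.90, -1.50 to -0.34), short of 2-fold. The cardiomyocyte check genes, MYH6 among them, also differed, with 328 and 148 counts in TEK-marked (-0.71), 695 and 233 in matrix-marked (-0.51) and 2598 and 1903 in remaining nuclei (-0.09), and their part in the INHBA counts was not tested. INHBA was found in 73 of 3475 control and 30 of 2933 Tbx5 G125R/+ nuclei, of which 44 and 21 were remaining, 20 and 4 matrix-marked, 7 and 3 TEK-marked and 2 and 2 titin-rich nuclei.

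**Figure D4:**
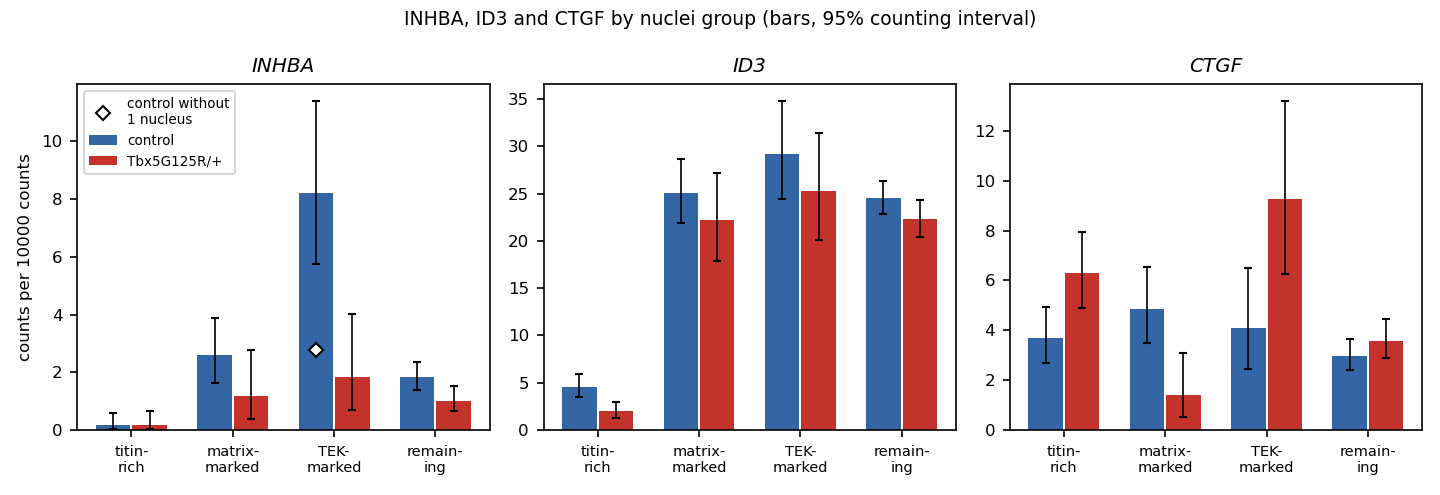
Counts of INHBA, ID3 and CTGF per 10000 counts (y axis, from 0) in the 4 groups of nuclei of the control (blue) and Tbx5 G125R/+ library (red), 1 library per bar, with exact 95% Poisson intervals. The white diamond is INHBA in control TEK-marked nuclei without the 1 nucleus that held 24 counts, 2.76 against 8.22 with it. The ratio of the libraries for ID3 is farthest from 1 in titin-rich nuclei (4.57 and 1.98), and CTGF is lower in matrix-marked and higher in titin-rich and TEK-marked nuclei of the Tbx5 G125R/+ library.

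In matrix-marked nuclei, the 7 members other than INHBA ranged from -0.37 (BMPR2, 36 and 13 counts) to 0.79 (ACVR1, 11 and 9), and in TEK-marked nuclei the other 8 from -0.47 (TGFB1, 21 and 11) to 0.22 (BMPR2, 28 and 24), each with an interval that includes 0. In the remaining nuclei 23 members were compared and none passed 2-fold, against 4.47% of 3107 genes. INHBA, with 9 of its 55 control counts in 1 nucleus, and 2 others had intervals that exclude 0 by counting error alone. BMP4 was higher in the Tbx5 G125R/+ library, with 42 and 59 counts from 39 and 52 nuclei (0.84, 0.25 to 1.45). SMAD2, the mediator of TGF-beta and activin signals, was lower, with 55 and 23 counts (-0.88, -1.67 to -0.18). For ID3 (742 and 528 counts, -0.13), SMAD7 (245 and 184, -0.06), SMAD6 (206 and 161, 0.00), TGFBR1 (180 and 115, -0.29) and BMPR2 (127 and 105, 0.08) of the remaining nuclei, the intervals exclude a 2-fold difference and include 0. The medians of the members were -0.46 in titin-rich, -0.21 in matrix-marked, -0.38 in TEK-marked and -0.04 in remaining nuclei, against -0.01, 0.03, 0.00 and -0.03 for all genes of the same groups.

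Of the other genes of the pathway, a list of 71 regulators, antagonists, co-receptors and targets was counted, of which 50 were in the tables and 29 had at least 20 counts. The most counted were TIMP3, a metalloproteinase inhibitor (588 control and 484 Tbx5 G125R/+ counts), PMEPA1, a TGF-beta-induced inhibitor of SMAD signalling (366 and 224), the deubiquitinase USP15 (293 and 222), the SMAD corepressor SKIL (261 and 188) and CTGF, a matrix-associated TGF-beta target (197 and 191). In titin-rich nuclei 10 of the 29 (34.5%) were lower, namely CRIM1, FBN1, FN1, FST, FSTL1, NRP1, NRP2, PMEPA1, SKIL and TIMP3, against 11.6% of all genes, and 4 (13.8%), CTGF, MAP3K7, NEDD4L and TSC22D1, were higher, against 16.7%. Under at least 1 alternative FN1, FST, FSTL1, NRP2, PMEPA1, SKIL, CTGF and MAP3K7 lost these calls. In matrix-marked nuclei 6 (20.7%, against 4.70%) were higher, PMEPA1 (1.84 ± 0.18, adjusted p = 4.43e-21, edgeR), TIMP3, the fibrillin gene FBN1, FSTL1, RGMA and ATOH8, and NRP2 was lower (3.45%, against 2.76%). The call of RGMA rests on the control library, with a difference of 1.91, against 0.13 in the Tbx5 G125R/+ library. Without titin-rich nuclei TIMP3, FSTL1 and RGMA were no longer called (adjusted p = 0.234, 0.0751 and 0.0664, edgeR), while PMEPA1, FBN1 and ATOH8 were, and DESeq2 called PMEPA1, FBN1 and TIMP3 but not FSTL1, RGMA, ATOH8 and NRP2. In TEK-marked nuclei 3 (10.3%, against 3.91%) were higher, the BMP antagonist CRIM1 (1.54 ± 0.26, adjusted p = 2.61e-07) and the co-receptors NRP1 (1.63 ± 0.28, 7.22e-07) and NRP2 (2.46 ± 0.39, 3.19e-08). These 3 calls held without titin-rich nuclei but not with 2 endothelial marker counts required (adjusted p = 0.704, 0.136 and 0.913). Without titin-rich nuclei PMEPA1 was also called lower in TEK-marked nuclei (-1.30, adjusted p = 0.00168, edgeR), 1 of 28 (3.57%) against 1.77%. NRP1 and NRP2 were then lower in matrix-marked nuclei (-1.49 and -2.47, adjusted p = 8.50e-04 and 3.52e-04, edgeR), 2 of 28 (7.14%) against 1.91%. In the remaining nuclei NRP1, NRP2 and SKIL (10.3%, against 3.66%) were called higher and CTGF (3.45%, against 0.796%) lower, and all 4 calls were lost without titin-rich nuclei (adjusted p = 0.846, 0.763, 0.146 and 0.359), where FBN1 alone was lower. The difference of CTGF in titin-rich nuclei was 0.55 in the fit. Scaled to total counts, it was 0.76 in the Tbx5 G125R/+ and -0.09 in the control library taken alone. These values are not on the scale of the fit, so the part of each library in the call was not tested.

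Between the libraries, 7 of these other genes passed 2-fold in at least 1 group: 3 of 16 compared in titin-rich nuclei, against 6.98% of all genes, 2 of 16 in matrix-marked (6.71%), 2 of 12 in TEK-marked (5.80%) and 1 of 26 in remaining nuclei (4.47%). In titin-rich nuclei TSC22D1, a TGF-beta-stimulated transcription factor, had 44 control and 81 Tbx5 G125R/+ counts (1.04, 0.50 to 1.61), the SMAD anchor ZFYVE9 14 and 30 (1.24, 0.30 to 2.29) and the ubiquitin ligase NEDD4L 5 and 15 (1.66, 0.22 to 3.56; over all nuclei 11 and 27). In matrix-marked nuclei CTGF had 43 and 6 counts (-1.67, -3.30 to -0.54) and the BMP co-receptor RGMA 22 and 3 (-1.62, -4.19 to -0.07). In TEK-marked nuclei CTGF had 18 and 30 (1.16, 0.28 to 2.10) and PMEPA1 11 and 18 (1.12, -0.02 to 2.37). ATOH8, a helix-loop-helix factor induced by BMP signals in the liver, had 19 and 5 counts in the remaining nuclei (-1.47, -3.35 to -0.10) and 32 and 9 in all nuclei (-1.37, -2.68 to -0.32).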

How the data were processed

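Nuclei of right atria were measured in 1 control and 1 Tbx5 G125R/+ library of 10x Genomics droplets, each from 3 pooled right atria, with 7000 nuclei loaded. The authors deposited raw counts per nucleus and gene, without zeros, after keeping nuclei with at least 1000 reads. All 9330 genes carry human Ensembl identifiers, while the submitters' notes name mm10. For the aligner, counting tool and strand setting, nothing is given in the sources used here, so antisense transcripts cannot be told from their partners. The deposited table of corrected p-values and fold changes per cluster was not used. The authors' cluster labels were not used either, since TTN ranged only from 71.8 to 170 per 10000 counts over labels with at least 100 nuclei.

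Counts were summed per library and group of nuclei by the marker rule. Levels are per 10000 counts of the group with exact 95% Poisson intervals. Ratios have 0.5 count added and exact conditional 95% intervals, for genes with at least 20 counts over both libraries, and a limit for 0 counts is 3 counts. The intervals cover counting error only. Groups were compared with edgeR 4.0.16 (TMM scaling) under R 4.3.3, with DESeq2 1.42.0 as alternative, marker genes left out of calls, and Python 3.11.15 with scipy 1.17.1 for the rest. Scripts were tested on simulated data. No doublet caller was run. The members and gene lists were chosen with earlier results of these data known. All members with at least 20 counts are named, and of the other pathway genes the 5 most counted and any called or past 2-fold.

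Alternatives changed the scaling, the count minimum, the marker rules, the depth of nuclei and the nuclei meeting more than 1 rule. Leaving out the titin-rich nuclei, the nucleus with the most INHBA counts, or both, was added after seeing the data.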

Additional observations from a re-analysis of the deposited data

Results flagged for a closer look

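The ratio of CTGF, a matrix-associated target of TGF-beta signals, between the libraries had opposite signs in different groups of nuclei, with counting intervals that exclude 0. The log2 ratio of Tbx5 G125R/+ over control was -1.67 (-3.30 to -0.54) in matrix-marked nuclei, with 43 and 6 counts, and 0.76 (0.21 to 1.34) in titin-rich nuclei, with 46 and 70, and 1.16 (0.28 to 2.10) in TEK-marked nuclei, with 18 and 30. The counts came from 33 and 6 matrix-marked, 37 and 56 titin-rich and 15 and 23 TEK-marked nuclei, and no nucleus held more than 4. Over the alternatives that gave a value, the ratios ranged from -1.81 to -1.38, from 0.72 to 0.81 and from 1.14 to 1.31 in these groups. The difference between the groups was not tested, since each ratio sets 1 library against 1.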

How the results depend on the processing

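Counts of called members depended on the comparison group and the tool. In titin-rich nuclei 1 member was higher (2 in the report) with total counts only, DESeq2 or at least 8 TTN counts. In matrix-marked nuclei DESeq2 gave 1 higher and 0 lower, TTN counts of at least 2 gave 2 lower, and 2 endothelial marker counts 0 lower. In TEK-marked nuclei 10 higher became 4 (ACVR1, ID3, INHBA and SMAD6) with DESeq2 and 2 (ID3 and INHBA) with 2 endothelial marker counts, where ID2 and TGFB1 turned to -0.72 and -0.67, neither called. In the remaining nuclei 2 higher became 1 with DESeq2 and 4 with 2 endothelial marker counts. Without titin-rich nuclei the counts were 0 higher and 2 lower in matrix-marked, 4 higher in TEK-marked and 0 higher and 1 lower in remaining nuclei, and without the INHBA-rich nucleus as well these counts were, in the same order, 0, 2, 3, 0 and 0. ID3 then turned to -0.06 in matrix-marked and -0.12 in remaining nuclei, and INHBA to -1.15 in the remaining nuclei. The cause was not tested. The last alternatives leave out the titin-rich nuclei, where the levels of ID3 and INHBA were lowest.

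Counts of members past 2-fold were small and moved with the minimum. With at least 10 counts they were 2 in titin-rich, 5 in matrix-marked, 2 in TEK-marked, 1 in remaining and 2 in all nuclei, and with at least 50 counts 0 in matrix-marked and 0 in TEK-marked nuclei. In titin-rich nuclei it was 2 without nuclei meeting more than 1 rule. In matrix-marked nuclei it was 0 with 1 count added, without nuclei meeting more than 1 rule, with at least 8 TTN counts or in nuclei with at least 100 counts. Without the INHBA-rich nucleus it was 0 in TEK-marked and 0 in all nuclei. The median ratio of the members moved to -0.14 (minimum 10) or -0.83 (minimum 50) in titin-rich nuclei, to -0.22 under both minima in all nuclei, to -0.14 (minimum 50) in remaining nuclei, and to -2.54 with 2 endothelial marker counts in TEK-marked nuclei, where only 2 members were left and the median of all genes rose by 0.21.

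Leaving out either library leaves no residual degrees of freedom among samples, and no such fit was made. No paired analysis was possible because each genotype has 1 library.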
